A study of Mus musculus with 8 samples.

Results

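Metallothioneins and the carriers that move zinc and manganese across membranes were examined as a set of 7 genes in mouse liver. The set holds the metallothioneins Mt1 and Mt2, the zinc-sensing regulator Mtf1, the exporters Slc30a1 and Slc30a10, and the importers Slc39a14 and Slc39a8. They were found by symbol in the deposited table, which lists 15864 genes, and all 7 passed the filter on low counts that left 14664 genes for testing. The genes were chosen from earlier results of the same knockout against control comparison, so their differences are given as a description and without a p-value. Total RNA was depleted of ribosomal RNA and sequenced from 5 livers labelled Alb-cre Mfrn1-/- Mfrn2-/- (KO) and 3 livers labelled WT. Alb-cre expresses Cre recombinase from the albumin promoter, which is active in hepatocytes. The submitters describe the loss of both genes as specific to hepatocytes, and the sample labels do not say how each allele was made. Mitoferrin 1 (Slc25a37) and mitoferrin 2 (Slc25a28) carry iron into mitochondria. All mice ate standard chow and the controls were matched for age; age and sex are not stated, nor is it stated whether the controls carried floxed alleles or Cre. The labels do not say that each library came from a separate mouse, so the spread between libraries may be in part technical.

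Metallothioneins are small cysteine-rich proteins that bind zinc, copper and cadmium, and liver is one of their main sites of synthesis. Free zinc is sensed by MTF-1, the product of Mtf1, a zinc-finger factor that binds metal response elements (MREs) in the promoters of Mt1, Mt2 and Slc30a1. Glucocorticoids, inflammation through STAT3 and oxidative stress also raise metallothionein RNA. Zinc leaves the cytosol through the Slc30 family (ZnT proteins) and enters it through the Slc39 family (ZIP proteins). Slc30a10 exports manganese, while ZIP14 (Slc39a14) and ZIP8 (Slc39a8) take up manganese, zinc and iron.

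The promoters of 6 of the 7 genes were matched by symbol in RefSeq (GRCm38.p6). The 250 bases before each annotated start were searched on both strands for the MRE core, written TGCACNC or TGCGCNC. The windows of the 4 genes below are shown because the core was present in them, and capitals mark it; it reads as the reverse complement where it lies on the other strand. The Mt2 window is chr8:94172368-94172617, the Mt1 window chr8:94178839-94179088, the Slc30a1 window chr1:191906531-191906780 and the Slc30a10 window chr1:185454598-185454847, all on the plus strand.
Mt2: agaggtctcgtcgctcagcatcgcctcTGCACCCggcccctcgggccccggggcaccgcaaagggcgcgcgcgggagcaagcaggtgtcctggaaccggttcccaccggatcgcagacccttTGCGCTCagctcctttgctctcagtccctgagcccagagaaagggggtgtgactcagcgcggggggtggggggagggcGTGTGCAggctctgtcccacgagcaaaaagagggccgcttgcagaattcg
Mt1: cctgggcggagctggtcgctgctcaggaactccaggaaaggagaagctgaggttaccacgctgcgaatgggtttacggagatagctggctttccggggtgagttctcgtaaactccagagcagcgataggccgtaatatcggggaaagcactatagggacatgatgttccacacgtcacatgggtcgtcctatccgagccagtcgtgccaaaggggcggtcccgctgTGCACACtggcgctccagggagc
Slc30a1: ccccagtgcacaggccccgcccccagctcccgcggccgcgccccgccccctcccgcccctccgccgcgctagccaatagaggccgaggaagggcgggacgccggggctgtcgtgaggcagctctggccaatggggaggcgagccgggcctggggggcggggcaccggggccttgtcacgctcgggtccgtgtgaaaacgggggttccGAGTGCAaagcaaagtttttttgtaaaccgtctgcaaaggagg
Slc30a10: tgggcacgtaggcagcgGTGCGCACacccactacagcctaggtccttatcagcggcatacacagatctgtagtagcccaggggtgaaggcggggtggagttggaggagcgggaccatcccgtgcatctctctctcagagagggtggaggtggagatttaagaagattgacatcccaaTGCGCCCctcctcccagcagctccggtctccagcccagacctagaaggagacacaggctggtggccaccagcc
The Mt2 window held 3 cores, the last one 44 bases before the start. The Slc30a10 window held 3 cores, of which 2 overlap on opposite strands and appear as 1 run of capitals. The Mt1 and Slc30a1 windows held 1 core each. The Mtf1 window and the first of 2 Slc39a8 windows held none, and the second Slc39a8 window held 1. Of 32851 promoter windows of this length in RefSeq, 21.4% held at least 1 core and 1.26% held at least 3. Both metallothionein genes have further annotated starts downstream. In GENCODE M21, the 159 bases of Mt1 from its first start to the base before its last start (chr8:94179082-94179240) held 4 further cores. The 196 bases of Mt2 between its first and last start (chr8:94172664-94172859) held 3. A match describes letters in a window and was not tested for binding.

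The 8 libraries held between 24600340 and 31887401 gene counts in KO livers and between 35484499 and 43072524 in WT livers. Slc25a28 had 0.592 to 0.888 CPM (counts scaled to a common library total) in KO livers, against 16.6 to 18.1 CPM in WT livers (log2 fold change -4.56 ± 0.128 SE, edgeR adjusted p = 1.92e-07). Slc25a37 had 5.76 to 10.6 CPM in KO livers, against 12.9 to 23.0 CPM in WT livers (log2 fold change -1.09 ± 0.209 SE, edgeR adjusted p = 0.104). Over all tested genes, edgeR called 7 higher and 9 lower in KO. The hepatocyte markers, among them Alb, Ttr and Apoa1, summed to between 99980 and 114300 CPM in KO livers and between 103500 and 107600 CPM in WT livers, so the tissue label holds. KO replicates 1 and 2 stood apart in the clock genes. Dbp, a clock output factor, had 69.3 and 54.5 CPM in these libraries, between 1.76 and 2.41 CPM in the other KO libraries and between 1.23 and 2.93 CPM in WT. In bulk tissue, a change in the number of cells of a type and a change in RNA per cell cannot be told apart.

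Mt2 was the member with the greatest fold difference. The gene lies on chromosome 8 (mm10 chr8:94172618-94173567, plus strand). Its counts were 351, 139, 122, 984 and 467 in KO replicates 1 to 5, against 82, 59 and 56 in WT replicates 1 to 3. Scaled by library size with TMM (trimmed mean of M values), Mt2 stood at 12.01, 4.62, 4.82, 39.7 and 14.7 CPM in KO livers, against 1.86, 1.42 and 1.59 CPM in WT livers. The lowest KO library was above the highest WT library. KO replicate 4 was far above the other KO libraries, while KO replicates 2 and 3 were closest to WT. Mt2 averaged 15.2 ± 14.4 CPM in KO livers (SD, n = 5) and 1.62 ± 0.222 CPM in WT livers (SD, n = 3), a log2 fold change of 3.22 ± 0.74 (SE). Without KO replicate 4 the log2 fold change was 2.48. An annotated antisense gene, Gm45774, overlaps Mt2 on the opposite strand; the kit keeps strand, but whether the counting used strand is not stated.

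Mt1 begins 5.52 kb downstream of the end of Mt2 on the same strand (mm10 chr8:94179089-94180325). Mt1 stood at 55.6, 19.4, 23.8, 134.5 and 66.6 CPM in KO livers, against 34.0, 14.9 and 8.85 CPM in WT livers. The groups overlapped, since KO replicates 2 and 3 were below WT replicate 1. Mt1 averaged 60.0 ± 46.3 CPM in KO livers (SD, n = 5) and 19.2 ± 13.1 CPM in WT livers (SD, n = 3), a log2 fold change of 1.64 ± 0.66 (SE). It was 1.10 without KO replicate 4 and 2.34 without WT replicate 1. The highest Mt1 library was 6.92 times the lowest among KO livers and 3.84 times the lowest among WT livers. The same ratios for Mt2 were 8.60 among KO livers and 1.31 among WT livers, so WT livers that differed in Mt1 were close to each other in Mt2.

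With both groups pooled, the metallothioneins varied more between libraries of a group than other genes of like mean abundance. The SD of log2 CPM within groups was 1.09 for Mt1, against a median of 0.132 over the 500 tested genes nearest to it in mean abundance. It was 1.05 for Mt2, against a median of 0.185. Of the 500 genes, 99.4% had a smaller SD than Mt1, and 98.8% had a smaller SD than Mt2. The other members did not stand out in this way, except that 87.0% of like genes had a smaller SD than Slc30a10. For Slc30a10 the coefficient of variation was 23.5% in KO livers and 4.05% in WT livers.

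**Figure D1:**
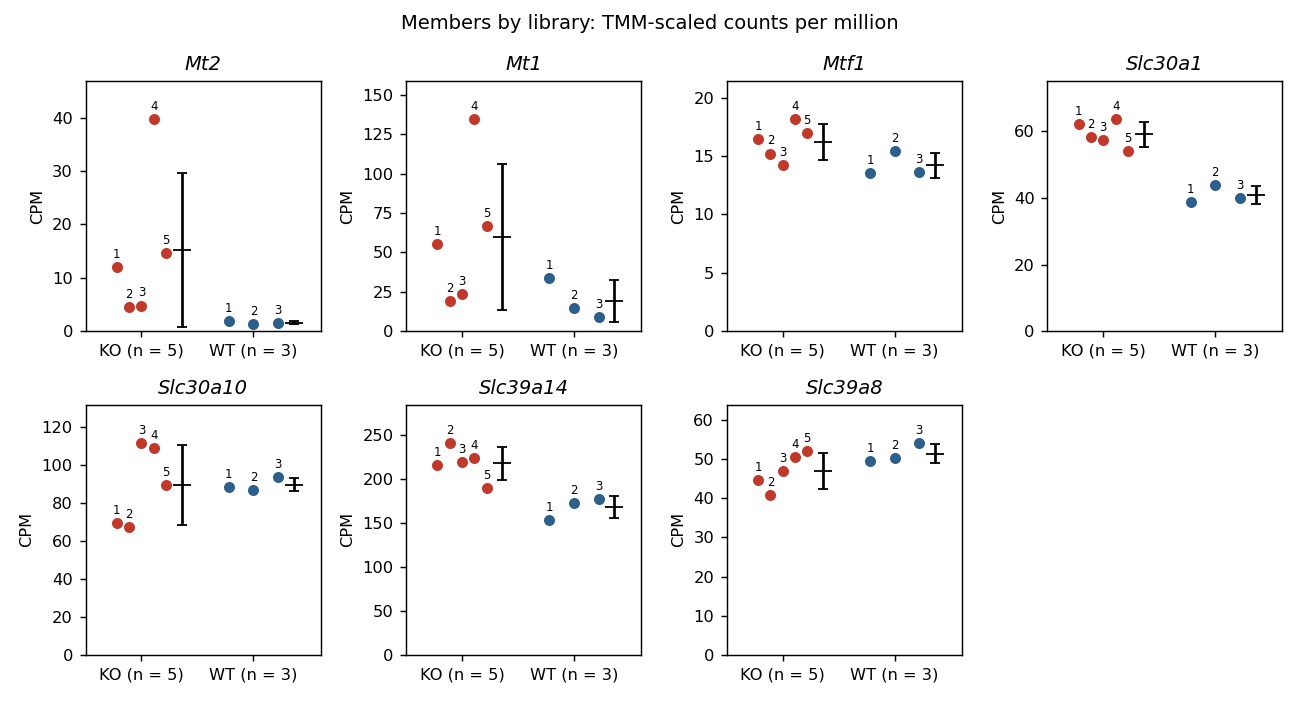
TMM-scaled CPM of each member by library, KO left and WT right; numbers are replicates, and the bars at the side show the mean ± SD (n = 5 KO, n = 3 WT). For Mt2, Slc30a1 and Slc39a14 every KO library is above every WT library; KO replicate 4 is the highest library for Mt2 (39.7 CPM) and Mt1 (134.5 CPM).

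Mt1 and Mt2 were high or low in nearly the same libraries. After the group means were subtracted, log2 CPM of the pair had Pearson's r = 0.881 and Spearman's rho = 0.952 over 8 libraries (two-sided exact permutation within groups, p = 0.0069 for r and p = 0.0056 for rho). Over the 21 pairs of members, the Benjamini-Hochberg adjusted values from the same exact permutation were p = 0.146 for r and p = 0.117 for rho, so the relation did not pass the correction. Without KO replicates 2 and 4, the libraries farthest from the median of Mt1, r was 0.725. The next pair by size was Mt2 with Mtf1 (r = 0.786, exact permutation p = 0.0486, adjusted p = 0.510). None of the 21 pairs passed after adjustment.

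The share of Mt2 in the metallothionein counts was higher in every KO library. Mt2 made up 17.8%, 19.2%, 16.8%, 22.8% and 18.1% of the Mt1 plus Mt2 counts in KO replicates 1 to 5, against 5.19%, 8.73% and 15.2% in WT replicates 1 to 3. All 5 KO libraries were above all 3 WT libraries, and WT replicate 3 came close to them. Its 95% exact Clopper-Pearson interval of 11.7% to 19.3%, from 368 counts, overlapped the interval of KO replicate 3, which ran from 14.2% to 19.7%. Such intervals cover counting error only. The mean share was 18.9 ± 2.33% in KO livers (SD, n = 5) and 9.71 ± 5.09% in WT livers (SD, n = 3). Among WT livers the share was higher where Mt1 was lower, while the KO library with the most Mt1 also had the highest share. The longest exact run shared by annotated Mt1 and Mt2 transcripts was 20 bases.

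**Figure D2:**
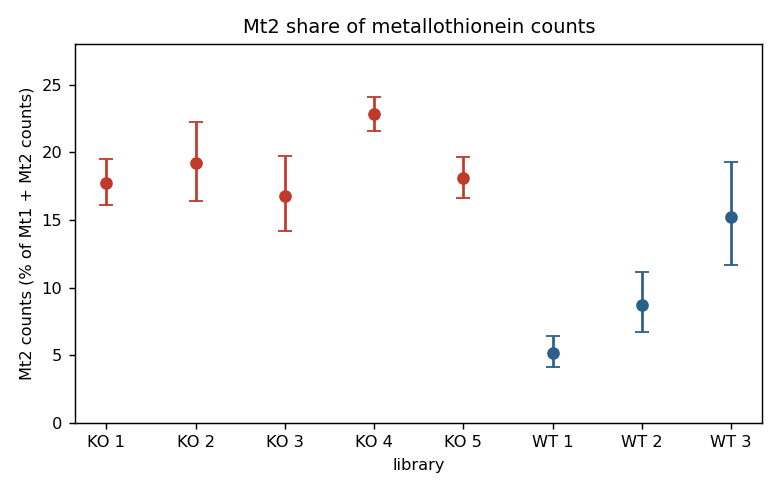
Mt2 counts as a percent of Mt1 plus Mt2 counts in each library, KO left and WT right; bars are 95% exact Clopper-Pearson intervals. The KO libraries lie between 16.8% and 22.8%, and WT replicate 3 (15.2%) is the WT library nearest to them.

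Mtf1, which encodes the zinc-sensing factor MTF-1, overlapped between the groups. It lies on chromosome 4 (mm10 chr4:124802104-124849800, plus strand). Mtf1 stood at 16.4, 15.2, 14.2, 18.2 and 17.0 CPM in KO livers, against 13.5, 15.5 and 13.7 CPM in WT livers. KO replicates 2 and 3 were below the highest WT library, and the other KO libraries above it. The log2 fold change was 0.19 ± 0.10 (SE).

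Slc30a1 encodes ZnT1, the zinc exporter of the plasma membrane, and it was higher in every KO library. The gene lies on chromosome 1 (mm10 chr1:191906767-191913247, plus strand). It stood at 62.2, 58.2, 57.2, 63.6 and 54.2 CPM in KO livers, against 38.9, 44.0 and 40.0 CPM in WT livers. The groups did not overlap, and the KO libraries with low metallothionein, replicates 2 and 3, lay within the range of the others. The means were 59.1 ± 3.81 CPM in KO livers (SD, n = 5) and 40.9 ± 2.69 CPM in WT livers (SD, n = 3), a ratio of 1.44 and a log2 fold change of 0.53 ± 0.084 (SE). An annotated antisense gene, 1700034H15Rik, overlaps its first bases, and annotated genes also overlap parts of Mtf1, Slc30a10 and Slc39a8.

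Slc30a10, the manganese exporter, had almost the same mean in both groups but spread widely among KO livers. It lies on chromosome 1 (mm10 chr1:185454848-185468762, plus strand). It stood at 69.2, 67.0, 111.4, 108.5 and 89.3 CPM in KO livers, against 88.4, 86.6 and 93.6 CPM in WT livers. KO replicates 1 and 2 were below every WT library and KO replicates 3 and 4 were above every WT library. The log2 fold change was -0.01 ± 0.18 (SE), and 0.21 when KO replicates 1 and 2 were left out. The low libraries were those with high Dbp, and the part of the clock difference in Slc30a10 was not tested.

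Slc39a14 encodes ZIP14, an importer of zinc, manganese and iron at the hepatocyte surface. It lies on chromosome 14 (mm10 chr14:70303469-70351425, minus strand). It stood at 215.9, 241.5, 219.7, 224.3 and 190.1 CPM in KO livers, against 153.9, 173.3 and 178.1 CPM in WT livers. The groups did not overlap, although KO replicate 5 was close to the highest WT library. The means were 218.3 ± 18.6 CPM in KO livers (SD, n = 5) and 168.4 ± 12.8 CPM in WT livers (SD, n = 3), a ratio of 1.30 and a log2 fold change of 0.37 ± 0.10 (SE). The gene sits 1.02 Mb from Slc25a37, one of the deleted genes. Within 1 Mb on each side of Slc39a14, 25 other genes were tested and edgeR called 0 of them. DESeq2 called 4 of them, which is 16.0% against 1.66% of all tested genes, and 8 (32.0%) had an unadjusted edgeR p under 0.05, against 10.4% of all tested genes. The 4, named after their values were seen, were Chmp7 (log2 fold change 0.58), 4930480K23Rik (0.84), Phyhip (2.12) and Ppp3cc (-0.72). The part that position near a targeted locus has in the Slc39a14 values was not tested. For all 25, the log2 fold changes ran from -0.72 to 2.12 with a median of 0.07, and 8 of them differed by at least as much as Slc39a14 in either direction.

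Slc39a8 encodes ZIP8, an importer of zinc and manganese. It lies on chromosome 3 (mm10 chr3:135825279-135888572, plus strand). It stood at 44.6, 40.8, 46.9, 50.5 and 52.2 CPM in KO livers, against 49.6, 50.3 and 54.2 CPM in WT livers. The groups overlapped, with KO replicates 1, 2 and 3 below every WT library. The log2 fold change was -0.13 ± 0.093 (SE), and -0.034 when KO replicates 1 and 2 were left out. These are the libraries with high Dbp, and the part of the clock difference in Slc39a8 was not tested.

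Counted across the set, edgeR called 0 of the 7 members at an adjusted p under 0.05, against 0.109% of all tested genes. DESeq2 called 3 of them (Mt2, Slc30a1 and Slc39a14), against 1.66% of all tested genes. The authors' deposited table put 2 of them (Slc30a1 and Slc39a14) past an adjusted p of 0.05, against 1.48% of its genes. The log2 ratios in the authors' deposited table were 0.51 for Slc30a1, 0.36 for Slc39a14, 0.49 for Mt2 and 0.31 for Mt1. The ratios of the metallothioneins were far smaller there than in the edgeR fit. DESeq2 fitted here gave 0.54 for Slc30a1, 0.38 for Slc39a14, 3.22 for Mt2 and 1.64 for Mt1. The deposited ratios may therefore be another kind of estimate than the fold changes given here, which was not tested.  Every KO library was above every WT library for 3 members, against 3.20% of tested genes, and below every WT library for 0 members, against 3.74%. Since the members were chosen from this comparison, nothing is read from these counts.

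Levels of different genes were compared as FPKM, the authors' counts scaled by gene length and library size. In KO livers the order of mean level was Mt1 (111.4 FPKM), Mt2 (27.4), Slc39a14 (20.7), Slc30a10 (15.2), Slc30a1 (11.3), Slc39a8 (6.13) and Mtf1 (1.82). In WT livers it was Mt1 (35.9 FPKM), Slc39a14 (15.9), Slc30a10 (15.3), Slc30a1 (7.79), Slc39a8 (6.69), Mt2 (2.92) and Mtf1 (1.59). By the mean, Mt2 stood next to Mt1 in KO livers, against a place between Slc39a8 and Mtf1 in WT livers. That place rested on KO replicate 4, which had 71.9 FPKM: without it Mt2 averaged 16.2 ± 9.20 FPKM in KO livers (SD, n = 4), below Slc39a14 at 20.5 FPKM and above Slc30a10 at 14.4 FPKM. Mt1 averaged 76.5 FPKM in the same 4 KO livers, against 111.4 FPKM in all 5. The libraries of neighbours overlapped for Mt1 with Mt2, Mt2 with Slc39a14, Slc39a14 with Slc30a10 and Slc30a10 with Slc30a1 in KO livers. In WT livers they overlapped for Mt1 with Slc39a14 and for Slc39a14 with Slc30a10. Mt1 FPKM was between 3.49 and 5.10 times Mt2 FPKM in KO livers, against 5.74 to 18.8 times in WT livers.

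**Figure D3:**
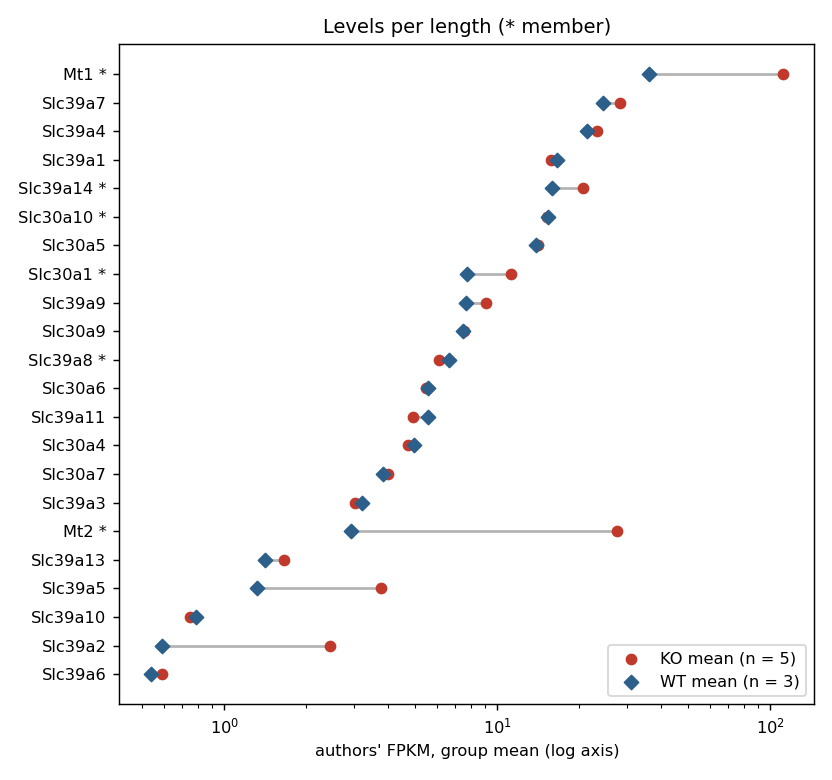
Mean FPKM of the authors on a log axis for Mt1, Mt2 and the tested Slc30 and Slc39 genes, ordered by the WT mean; circles are KO (n = 5), diamonds WT (n = 3), and asterisks mark members. Mt2 stands at 27.4 FPKM in KO (16.2 without KO replicate 4) and 2.92 FPKM in WT.

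The rest of the zinc transporter families was described to set the members in context. Of 20 further Slc30 and Slc39 genes, 18 were in the table and 16 passed the filter; edgeR called 0 of them higher and 0 lower. An unadjusted p under 0.05 was reached by 4 (25.0%, against 10.4% of all tested genes), and DESeq2 called 1 (6.25%, against 1.66%). Every KO library was above every WT library for 4 of the 16 (25.0%, against 3.20%). These 4, named after their values were seen, were Slc39a2, Slc39a5, Slc39a9 and Slc39a13. The median log2 fold change of the 16 was 0.04, against -0.00 over all tested genes, with 10 above and 6 below 0. In the Slc30 family the genes with the smallest p were Slc30a7, a carrier of the secretory pathway, and Slc30a4, a vesicular carrier. Slc30a7 differed by 0.06 ± 0.11 on the log2 scale (SE, edgeR adjusted p = 0.898) and Slc30a4 by -0.08 ± 0.091 (SE, edgeR adjusted p = 0.805).

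In the Slc39 family Slc39a2, which encodes the zinc importer ZIP2, had the smallest p. It stood at 7.98, 6.84, 9.36, 8.19 and 9.93 CPM in KO livers, against 1.04, 4.51 and 0.624 CPM in WT livers. The groups did not overlap, but the difference did not pass the test (log2 fold change 2.03 ± 0.52 SE, edgeR adjusted p = 0.222). Without WT replicate 2, the WT library nearest to KO, the log2 fold change was 3.32 and the edgeR adjusted p was 0.0014. Leaving out the nearest library widens the difference, so nothing is read from that p. No other setting that was tried called Slc39a2. The gene with the smallest p in the lower direction was Slc39a11, which encodes the importer ZIP11, with a log2 fold change of -0.18 ± 0.14 (SE).

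Slc39a5, named after its values were seen, is the gene that DESeq2 called. It encodes ZIP5, an importer of the basolateral membrane. It stood at 8.45, 5.85, 15.6, 5.09 and 5.51 CPM in KO livers, against 3.47, 1.30 and 3.66 CPM in WT livers. The groups did not overlap, and KO replicate 3 was the highest library (log2 fold change 1.53 ± 0.45 SE, edgeR adjusted p = 0.290 and DESeq2 adjusted p = 0.0161).

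**Figure D4:**
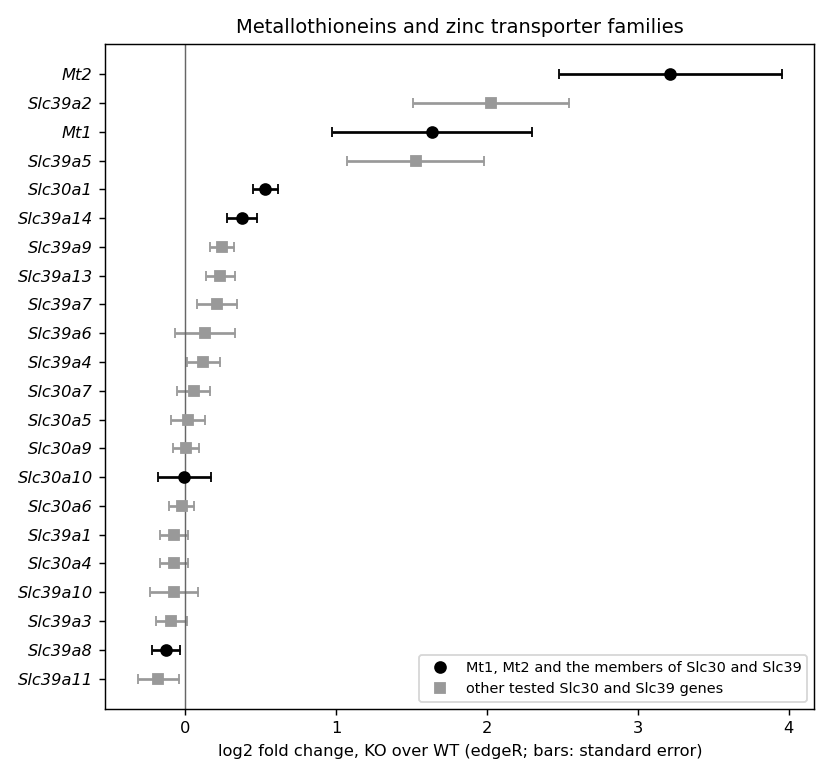
Log2 fold change of KO over WT from edgeR with its standard error for Mt1, Mt2 and the tested Slc30 and Slc39 genes; circles are members and squares the other genes. Mt2 (3.22), Slc39a2 (2.03), Mt1 (1.64) and Slc39a5 (1.53) lie farthest from 0, with wide error bars.

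Lists of genes around the same metals were counted against the same shares of all tested genes, 0.109% called by edgeR, 1.66% called by DESeq2 and 10.4% at an unadjusted p under 0.05. A list of further MTF-1 responsive genes had 6 tested genes: Slc39a10, Sepw1, Ndrg1, Csrp1, Gclc and Hamp. Of these, edgeR called 0, DESeq2 called 0 and none had an unadjusted p under 0.05. All 6 had log2 fold changes below 0, and the median was -0.28. The list was not sorted by the direction in which each gene responds, and MTF-1 activity was not tested. Gclc, an enzyme of glutathione synthesis, had the smallest p of that list (log2 fold change -0.36 ± 0.21 SE, edgeR adjusted p = 0.579). Of 9 tested genes for manganese and other divalent metals, 0 were called by edgeR or DESeq2, with 0 at an unadjusted p under 0.05 (median 0.01); the smallest p was that of Slc41a2, a magnesium carrier, at -0.68 ± 0.53 (SE). Of 13 tested copper genes, 0 were called by edgeR or DESeq2, with 1 at an unadjusted p under 0.05 (median -0.06); the smallest p was that of Steap3, a metalloreductase, at -0.43 ± 0.15 (SE, edgeR adjusted p = 0.367).

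Of 16 tested zinc metalloenzymes of liver, edgeR called 0 higher and 1 lower. DESeq2 called 3 (18.8%, against 1.66% of all tested genes), and 5 had an unadjusted p under 0.05 (31.2%, against 10.4%). The gene called by edgeR was Alad, the zinc enzyme of the heme pathway that joins aminolevulinate molecules. Alad stood at 109.2, 111.4, 119.9, 113.1 and 99.3 CPM in KO livers, against 211.4, 182.1 and 171.2 CPM in WT livers, and the groups did not overlap. It fell by 0.77 ± 0.097 on the log2 scale (SE, edgeR adjusted p = 0.0252). The other genes called by DESeq2, named after their values were seen, were Car3 and Alpl. Car3, a carbonic anhydrase, had 1082 to 1602 CPM in KO livers, against 1752 to 2447 CPM in WT livers (log2 fold change -0.67 ± 0.15 SE, edgeR adjusted p = 0.175). Alpl, the tissue-nonspecific alkaline phosphatase, had 6.396 to 15.04 CPM in KO livers, against 4.48 to 5.15 CPM in WT livers (log2 fold change 0.93 ± 0.26 SE, edgeR adjusted p = 0.265). Neither gene overlapped between the groups. The median of that list was -0.09, with 5 genes above and 11 below 0.

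Lists for other known inducers of metallothionein, and for clock and feeding genes, were described in the same way, and edgeR called 0 genes in each. DESeq2 called 1 of 12 glucocorticoid responsive genes (8.33%), 1 of 15 genes of fasting and feeding (6.67%) and 0 in the others. The share over all tested genes was 1.66%. An unadjusted p under 0.05 was reached by 3 of 15 clock genes and 2 of 15 genes of fasting and feeding. Other counts were 2 of 12 glucocorticoid responsive genes, 2 of 22 acute phase and STAT3 genes and 2 of 10 targets of Nrf2. Of all tested genes 10.4% reached it, and only the acute phase and STAT3 share, 9.09%, was below that. The median log2 fold change was -0.26 over 12 glucocorticoid responsive genes, 0.01 over 22 acute phase and STAT3 genes and -0.13 over 10 targets of Nrf2. Fkbp5, a glucocorticoid-induced chaperone, had the smallest p of the first list and stood at 66.0, 91.5, 100.1, 81.3 and 55.1 CPM in KO livers, against 30.2, 38.5 and 42.2 CPM in WT livers. Its groups did not overlap (log2 fold change 1.09 ± 0.20 SE, edgeR adjusted p = 0.0936). Of the 12 genes of that list, 3 had log2 fold changes above 0 and 9 below 0. The part of glucocorticoids, or of the other inducers, in the metallothionein values was not tested. Saa4, a serum amyloid, had the smallest p of the acute phase list (-0.57 ± 0.16 SE, edgeR adjusted p = 0.250), and Nqo1, a quinone reductase, that of the Nrf2 list (-0.49 ± 0.15 SE, edgeR adjusted p = 0.307). Over 15 clock genes the median was 0.48, with the smallest p for Cry2, a repressor of the clock (0.50 ± 0.18 SE). Over 15 genes of fasting and feeding it was 0.39, with the smallest p for Pnpla3, a lipid droplet protein (1.27 ± 0.26 SE, edgeR adjusted p = 0.132).

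Markers of other cell types were set beside the metallothioneins, since some of them were low in the same KO libraries. The 6 tested Kupffer cell markers, with Adgre1 not analysed here, summed to 492.7, 416.1, 397.5, 736.1 and 527.8 CPM in KO livers, against 503.5, 666.1 and 361.4 CPM in WT livers. KO replicate 4, which had the most metallothionein, was the highest library, and KO replicates 2 and 3 were the lowest KO libraries in both. WT replicate 2 was high in Kupffer cell markers but not in metallothionein. The erythroid markers summed to 399.0, 97.4, 169.5, 360.3 and 310.1 CPM in KO livers, against 191.8, 289.6 and 205.5 CPM in WT livers. KO replicates 2 and 3 were again the lowest KO libraries, but KO replicate 1 was the highest. WT replicate 1 had the most metallothionein of the WT livers (35.8 CPM) and the lowest erythroid sum of them. The part of either set of markers in the metallothionein values was not tested.

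The marker lists held no gene called by edgeR. Of 7 listed neutrophil markers, only 3 passed the filter. DESeq2 called 1 of these 3 (33.3%, against 1.66% of all tested genes). An unadjusted p under 0.05 was reached by all 3 (100%, against 10.4%) and by 1 of 7 tested hepatocyte markers (14.3%). Every KO library was below every WT library for 2 of the 3 neutrophil markers, against 3.74% of all tested genes. The neutrophil markers summed to 0.977 to 3.67 CPM in KO livers and 3.89 to 11.6 CPM in WT livers, without overlap; S100a9 had the smallest p (log2 fold change -1.60 ± 0.43 SE, edgeR adjusted p = 0.247). Lymphocyte markers summed to 2.05 to 3.96 CPM in KO livers and 1.59 to 3.75 CPM in WT livers. Sinusoidal endothelial markers summed to 405.8 to 538.5 CPM in KO livers and 409.0 to 505.9 CPM in WT livers, and stellate cell markers summed to 544.1 to 589.4 CPM in KO livers and 558.2 to 593.0 CPM in WT livers. Cholangiocyte markers summed to 36.8 to 59.3 CPM in KO livers and 35.4 to 45.6 CPM in WT livers, and the 1 tested pancreas or fat marker, Cela2a, was under 1 CPM in all 8 libraries.

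**Figure D5:**
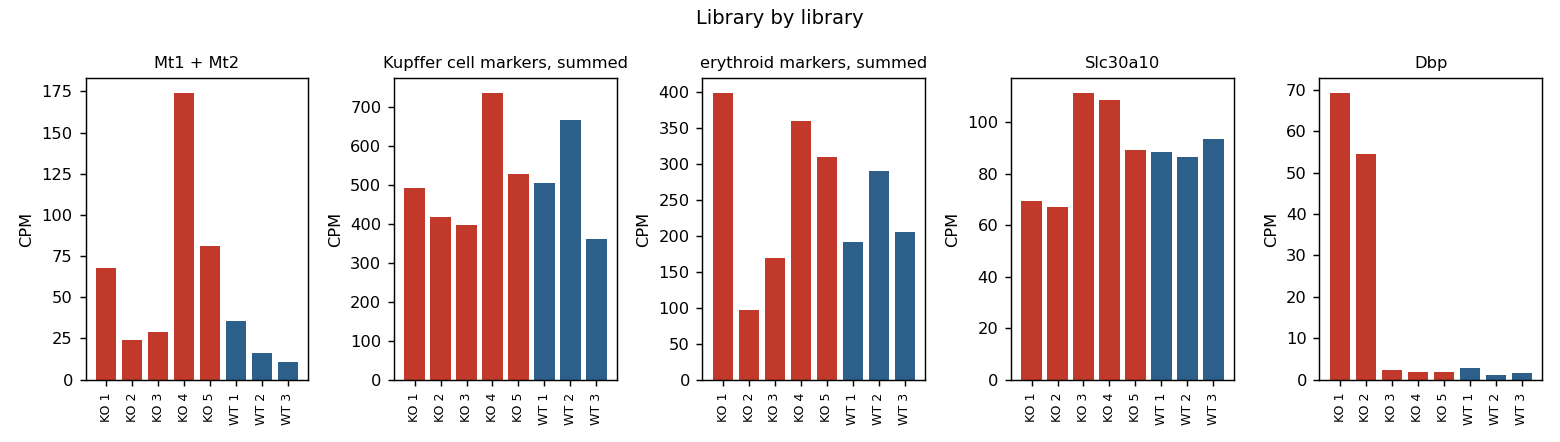
CPM by library, KO left and WT right, for Mt1 plus Mt2, the summed Kupffer cell and erythroid markers, Slc30a10 and Dbp. KO replicates 2 and 3 are the lowest KO libraries in the first 3 panels. KO replicates 1 and 2 are the low libraries of Slc30a10 and the high libraries of Dbp (69.3 and 54.5 CPM).

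The genes most like each member across libraries were sought among 8221 tested genes, by Pearson's r of log2 CPM over 8 libraries after subtracting group means. The points share library and depth, so the values are a description. Each r is among the greatest of 8221 over only 8 libraries, so a high value can come from the search alone. For Mt1 they were Fcna, a ficolin (r = 0.967), Dxo (0.966) and Slc31a2, a copper transporter (0.965). For Mt2 they were Cml1 (0.975), Zfp771 (0.961) and Rap2a (0.954). Cml1 stood at 139.9, 98.8, 94.3, 208.2 and 162.3 CPM in KO livers, against 163.3, 168.3 and 176.7 CPM in WT livers, so it varied with Mt2 among KO livers without being higher there. For Mtf1 they were Slc9a9 (0.967), Siglec1, a macrophage receptor (0.963), and Adrbk1 (0.961). For Slc30a1 they were Pdik1l (0.945), Akap17b (0.942) and Cdkn1b, a cell cycle inhibitor (0.905). For Slc30a10 they were Clpb, a mitochondrial chaperone (0.995), Ncln (0.993) and Cyp2d26, a cytochrome P450 (0.988). For Slc39a14 they were Scyl3 (0.970), Npat (0.963) and Ptpn21 (0.952). For Slc39a8 they were Pdcd7 (0.985), Pnkd (0.977) and Tmc6 (0.977).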

How the data were processed

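The authors deposited 1 table of gene counts, FPKM and regularised log2 values for 8 mouse liver libraries, with a log2 ratio and an adjusted p score per gene, per the file headers. Per the submitters' processing notes, Novoalign 2.8, DESeq2 and the mouse build mm10 were used; the counting tool and strand setting are not stated. The deposited FPKM equal the count divided by gene length and a constant per library. The deposited score was read as a scaled negative log10 of an adjusted p, since its rank correlation with the DESeq2 values computed here was 0.994. The 8 columns of regularised log2 values were not used. The deposited gene lengths and coordinates, another measure, were used for the length check and positions.

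Counts were filtered with filterByExpr (minimum count 10), scaled with TMM and tested with edgeR 4.0.16 (quasi-likelihood, Benjamini-Hochberg over 14664 genes, threshold 0.05), after a check on simulated data. Depth ran from 24600340 to 43072524 counts. Replicate libraries differed by far more than sampling noise. DESeq2 1.42.0, limma-voom (limma 3.58.1), other scalings and filters, and leaving out libraries were tried. Besides the 7 genes, the text names the called genes of each list, or else the gene with the smallest p (in each direction for the transporter families), and the 3 genes most like each member (prior count 2, average log2 CPM of at least 3, no predicted genes). The members and lists were chosen with earlier results of these data known.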

Additional observations from a re-analysis of the deposited data

Results flagged for a closer look

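The Mt2 value of KO replicate 4, 39.7 CPM, lay far from the other 4 KO libraries. Its gap to the next library was 0.712 of the range of the KO group, just above the critical value of 0.710 for 5 samples. Of 51 genes examined in this way it was the only one past that value, and chance flags about 1 in 20 groups. Groups of 3, such as the WT livers, were not examined.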

How the results depend on the processing

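Another scaling or filter, or limma-voom, left the counts of called genes within 1.5 times of 7 higher and 9 lower. DESeq2 called 146 higher and 98 lower, and 1 other zinc transporter gene. Leaving out 1 library at a time gave 2 to 11 higher, 6 to 19 lower and 0 to 1 other zinc transporter gene. The higher count fell to 2 without KO replicate 1, KO replicate 5 or WT replicate 3, to 3 without KO replicate 2 and to 4 without KO replicate 4, and was 11 without KO replicate 3. The lower count was 19 without KO replicate 3 and 17 without WT replicate 1. Excluding KO replicates 1 and 2 together gave 3 higher. The samples numbered 82 alone, by the first digits of their titles, gave 13 higher and Mt2 as a called member. They are 2 KO libraries, replicates 4 and 5, and all 3 WT libraries. KO replicates 1 to 3 have other numbers and no WT library shares these, so number and group are partly confounded. KO replicates 4 and 5 were also the KO libraries with the most Mt1 and Mt2 (174.2 and 81.3 CPM summed). The cause of these changes in the counts of called genes, and the part of the numbers in the metallothionein values, was not tested.

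The log2 fold changes of Mt1, Mt2, Mtf1, Slc30a1 and Slc39a14 stayed above 0 in all 18 alternatives. They ran from 0.77 to 2.38 for Mt1, 2.01 to 4.06 for Mt2 and 0.50 to 0.58 for Slc30a1. Mtf1 ran from 0.098 to 0.31 and Slc39a14 from 0.26 to 0.43, each lowest with the trend over gene length removed. The correlation (rho) of gene length with a library's deviation ran from -0.12 to 0.22 in KO livers and from -0.26 to -0.041 in WT livers. The part of gene length in these values was not tested. Slc39a8 was at 0.0023 in the samples numbered 82, and Slc30a10 lay between -0.16 and 0.21. With the replicate block, on replicates 1 to 3 of both groups, Mt2 was 2.01, with 5 genes called higher and 7 lower; with no block on the same libraries, an alternative chosen after seeing the data, it was 2.14, with 10 higher and 11 lower. Libraries of the same number did not deviate together (r = 0.081, 0.020 and -0.060), so the numbers were not taken to pair them. Only 3 WT libraries were at hand, and Mt2 in WT rests on 56 to 82 counts per library.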
